A study of Mus musculus with 20 samples.

Results

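The 10 genes described here act on fibrillar procollagen between its folding in the endoplasmic reticulum and the removal of its propeptides outside the cell. They were listed by name for these roles, with earlier results of these data known, and are 10 of the 54532 genes in the deposited count table. Bmp1 encodes the procollagen C-proteinase, and Pcolce and Pcolce2 encode its enhancers. Adamts2, Adamts3 and Adamts14 encode the N-proteinases. Serpinh1, Fkbp10 and P4hb encode endoplasmic reticulum proteins that help procollagen fold, and Sparc encodes a secreted collagen-binding glycoprotein.

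The study sequenced RNA of the thoracic aorta from C57BL/6J mice given either β-aminopropionitrile (BAPN), an inhibitor of the lysyl oxidases, or water for 1 week. The 4 groups were descending aorta with BAPN, descending aorta with water, ascending aorta with BAPN and ascending aorta with water, with 5 libraries in each and 20 in all. All groups share the strain, and the labels name no engineered allele; dose, age, sex and whether both regions came from the same animals are not given in the sources used here. The labels do not state that libraries are from separate animals, so a p-value here reflects the variation among these libraries alone, which may be partly technical.

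Fibrillar collagens are made as procollagens with globular ends. In the endoplasmic reticulum, prolyl hydroxylases and isomerases prepare the chains, and the collagen chaperone encoded by Serpinh1 holds the finished triple helix on its way to export. Outside the cell, the N- and C-proteinases cut off the propeptides so that fibrils can assemble, and the lysyl oxidases then cross-link the fibrils. In the aorta, smooth muscle cells and adventitial fibroblasts make most of this collagen, and the C-proteinase also cuts the precursor of lysyl oxidase itself.

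Total counts ran from 15744725 to 23292294 per library, and the 10 genes together took between 1.28% and 2.25% of them, most of it Sparc (0.936% to 1.79%). All 10 passed the filter on low counts. Smooth muscle markers summed to 18910 to 25050 CPM (counts scaled to a common library size) over the 20 libraries, and none of the 8 was at 0 in any group. Cardiomyocyte markers summed to 438 to 1250 CPM in the ascending libraries, against 69.0 to 84.3 CPM in the descending ones, and mesothelial markers to 207 to 379 CPM in the ascending libraries, against at most 12.3 CPM in the descending ones. A division among libraries that no label names was visible in 33 pseudogenes: their first principal component parted the libraries into a set with higher pseudogene levels (ascending BAPN 1 to 5, ascending water 4 and 5, descending water 1, 2 and 5), while the other set, with lower levels, held 10 libraries (descending BAPN 1 to 5, descending water 3 and 4, ascending water 1, 2 and 3). The gap between the sets was 1.73 on that component, and the widest gap inside a set was 0.51. These sets are unequally spread over the treatments, so values with a term for the set, or within 1 set, stand beside the results they change. In bulk RNA, fewer cells of a type and less RNA per cell cannot be told apart.

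The promoter windows of 4 of the genes are shown because their calls after BAPN differed. Sparc and Adamts2 were called lower in the ascending aorta, whereas Serpinh1 and P4hb did not pass the test. The genes were not tested against each other. The 95% interval of the log2 difference of Adamts2 (-0.25 to -0.081) overlapped those of Serpinh1 (-0.11 to 0.056) and P4hb (-0.093 to 0.039). Adamts2 also lost its call with a term for the pseudogene set. Each window holds the 250 bases before the gene's start in RefSeq (GRCm38.p6), 5′ to 3′ on the gene's strand, with capitals on matches to GGGCGG or CCAAT on either strand. The windows are chr11:55420081-55420330 (minus strand) for Sparc, whose RefSeq start lies inside the gene's GENCODE span, chr11:50601835-50602084 (plus strand) for Adamts2, chr7:99353240-99353489 (minus strand) for Serpinh1 and chr11:120573254-120573503 (minus strand) for P4hb.
Sparc: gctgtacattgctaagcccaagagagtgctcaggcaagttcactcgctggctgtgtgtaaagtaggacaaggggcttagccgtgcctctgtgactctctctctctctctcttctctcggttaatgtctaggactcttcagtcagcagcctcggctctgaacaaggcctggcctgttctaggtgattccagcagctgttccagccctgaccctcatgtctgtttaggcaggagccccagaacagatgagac
Adamts2: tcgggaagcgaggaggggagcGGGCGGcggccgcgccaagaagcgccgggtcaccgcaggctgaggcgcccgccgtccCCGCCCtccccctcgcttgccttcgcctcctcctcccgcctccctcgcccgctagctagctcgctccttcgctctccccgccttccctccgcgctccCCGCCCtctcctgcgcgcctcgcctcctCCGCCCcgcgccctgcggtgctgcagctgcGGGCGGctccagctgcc
Serpinh1: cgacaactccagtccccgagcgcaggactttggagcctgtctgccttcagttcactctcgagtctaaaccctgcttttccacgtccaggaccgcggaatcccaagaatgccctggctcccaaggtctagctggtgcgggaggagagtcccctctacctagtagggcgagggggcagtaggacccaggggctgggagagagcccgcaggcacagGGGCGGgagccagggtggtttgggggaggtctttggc
P4hb: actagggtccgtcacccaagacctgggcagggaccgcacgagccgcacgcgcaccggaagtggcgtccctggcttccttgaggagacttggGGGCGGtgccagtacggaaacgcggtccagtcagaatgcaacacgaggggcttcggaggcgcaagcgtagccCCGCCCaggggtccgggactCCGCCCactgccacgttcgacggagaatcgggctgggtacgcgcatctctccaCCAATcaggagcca
The Sparc window had the lowest G and C content of the 4 (54.0%) and held neither sequence, nor TATAAA. The Adamts2 window had 78.0% G and C and 5 matches to GGGCGG, the P4hb window 66.8% with 3 matches and 1 to CCAAT, and the Serpinh1 window 63.6% with 1 match. Windows were found for 8 of the 10 genes; GGGCGG was in 7 of them, and in 32.7% of all 32851 mouse windows of this length. CCAAT was in 1 of the 8 (33.8% of all windows) and TATAAA in 0 (12.4% of all windows). A match describes the letters only.

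Per length of exon, the order of the 10 transcripts was the same in all 4 groups. Sparc came first, at 13553 ± 570 TPM, a level scaled for exon length and library, in descending BAPN, 15594 ± 847 in descending water, 8495 ± 512 in ascending BAPN and 10625 ± 577 in ascending water (SD, n = 5 each). Serpinh1 followed at group means of 1710 to 2254 TPM, then P4hb (758 to 922), Adamts2 (273 to 343), Fkbp10 (198 to 260), Pcolce (189.5 to 235), Pcolce2 (114 to 189), Bmp1 (82.2 to 114), Adamts14 (5.16 to 5.41) and Adamts3 (1.29 to 1.66). Some neighbours in this order did not differ beyond their spread: the ranges of Fkbp10 and Pcolce overlapped in every group except descending BAPN, those of Pcolce and Pcolce2 overlapped in descending BAPN, and those of Pcolce2 and Bmp1 in ascending water. The 3 N-proteinases were very unequal. Adamts2 made up group means of 97.6% to 98.0% of their summed TPM.

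**Figure D1:**
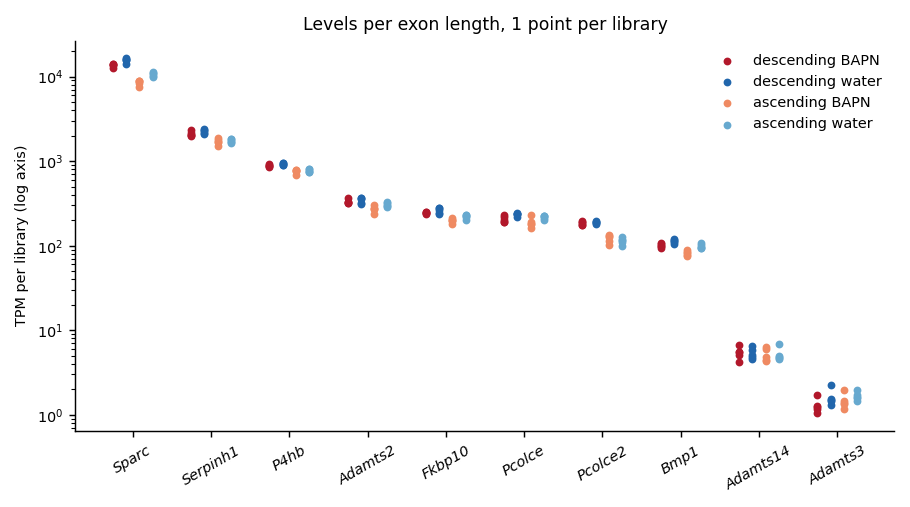
Each point is 1 library, with TPM per exon length on a log axis, the 10 genes from highest to lowest and the 4 groups in colour. Sparc lies highest and Adamts3 lowest in every group, and the points of Fkbp10 and Pcolce run into each other.

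BAPN was followed in the ascending aorta by lower transcript of the C-proteinase, of 1 of its enhancers, of the main N-proteinase, of the prolyl isomerase and of Sparc, while the chaperones Serpinh1 and P4hb did not pass the test. Of the 10 genes 5 fell and 0 rose at an adjusted p under 0.05 in edgeR's quasi-likelihood test with Benjamini-Hochberg adjustment, against 2.91% of the 15543 genes tested that fell and 3.44% that rose (6.34% in either direction). The median log2 difference was -0.16 over the 10 genes and -0.0051 over all genes tested.

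Sparc (ENSMUSG00000018593, GRCm38 chromosome 11, 55394500 to 55423183) had the smallest p of the 10. It stood at 9468, 9667, 9247, 9587 and 9513 CPM in the 5 ascending BAPN libraries, against 11616, 12571, 11567, 11592 and 11877 CPM in the ascending water libraries. Every BAPN library lay below every water library, and the BAPN libraries were close together. The level fell by 19.8% (log2 difference -0.32, SE 0.036, edgeR adjusted p = 2.81e-06).

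Bmp1 (ENSMUSG00000022098, chromosome 14, 70474558 to 70520234) had 226, 211, 202, 216 and 223 CPM in ascending BAPN libraries and 258, 258, 258, 249.8 and 265 CPM in ascending water libraries. The groups did not overlap. The gene fell by 16.5% (log2 -0.26, SE 0.038, edgeR adjusted p = 7.78e-05). Pcolce, the enhancer that binds the C-propeptide and speeds the cut (ENSMUSG00000029718, chromosome 5, 137605103 to 137613784), had 248, 199.8, 202, 212 and 205 CPM under BAPN and 240.1, 246, 241, 258 and 243 CPM with water. Replicate 1 of the BAPN group was as high as the water libraries, and the other 4 lay below all of them. Its log2 difference was -0.20 (SE 0.052, edgeR adjusted p = 0.0183). Pcolce2, the second enhancer (ENSMUSG00000015354, chromosome 9, 95637601 to 95698096), averaged 165 ± 10.5 CPM under BAPN and 155 ± 8.04 CPM with water (SD, n = 5 each), with overlapping libraries. Its difference of 0.09 (95% interval -0.0010 to 0.18, edgeR adjusted p = 0.255) did not pass. The share of Pcolce2 in the summed TPM of both enhancers was 39.1% ± 1.73 in ascending BAPN and 34.3% ± 1.26 in ascending water (SD, n = 5 each), a share picked after its values were seen and given without a test.

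Among the N-proteinases, Adamts2 (ENSMUSG00000036545, chromosome 11, 50602084 to 50807573) had 794, 739, 764, 738 and 728 CPM under BAPN, against 859.6, 851, 858, 809 and 844 CPM with water. All 5 BAPN libraries were below the lowest water library, although by a small margin. The log2 difference was -0.17 (SE 0.041, edgeR adjusted p = 0.0134). Adamts14 (ENSMUSG00000059901, chromosome 10, 61197112 to 61273438) and Adamts3 (ENSMUSG00000043635, chromosome 5, 89677087 to 89883334), which also cuts the lymphatic growth factor VEGF-C, were too low for small changes to be detectable at this depth. Adamts14 had 117 to 181 counts per library under BAPN and 133 to 201 with water, a log2 difference of 0.00 with a 95% interval of -0.27 to 0.27. Adamts3 had 35 to 56 counts under BAPN and 46 to 60 with water, with a difference of -0.18 (interval -0.53 to 0.18).

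Of the folding helpers, Fkbp10, a collagen prolyl isomerase (ENSMUSG00000001555, chromosome 11, 100415697 to 100424824), had 177, 169, 171, 167 and 172 CPM under BAPN and 197, 200.1, 193, 177 and 187 CPM with water. The groups only just failed to touch, since the highest BAPN and the lowest water library were both near 177 CPM. The log2 difference was -0.16 (SE 0.044, edgeR adjusted p = 0.0295). Exons of Fkbp10 overlap those of Nt5c3b on the opposite strand, and those of Pcolce overlap Fbxo24 and an antisense gene; whether strand was used in counting is not given in the sources used here, so the values of both are uncertain to that extent. Serpinh1, the collagen-specific chaperone (ENSMUSG00000070436, chromosome 7, 99345376 to 99353239), had 1294, 1198, 1203, 1258 and 1205 CPM under BAPN and 1251, 1267, 1278, 1236 and 1244 CPM with water. P4hb, which is both a disulfide isomerase and a subunit of prolyl 4-hydroxylase (ENSMUSG00000025130, chromosome 11, 120560298 to 120573253), had 638, 630.2, 643, 644 and 648 CPM under BAPN and 661, 656, 653, 644 and 650.0 CPM with water. Both pairs of groups overlapped, P4hb through BAPN replicate 5 alone (647.7 CPM, against 644.4 CPM in the lowest water library). Their log2 differences were -0.03 each, with 95% intervals of -0.11 to 0.06 for Serpinh1 and -0.093 to 0.039 for P4hb, so a fall of the size seen in Bmp1 lies outside both intervals.

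**Figure D2:**
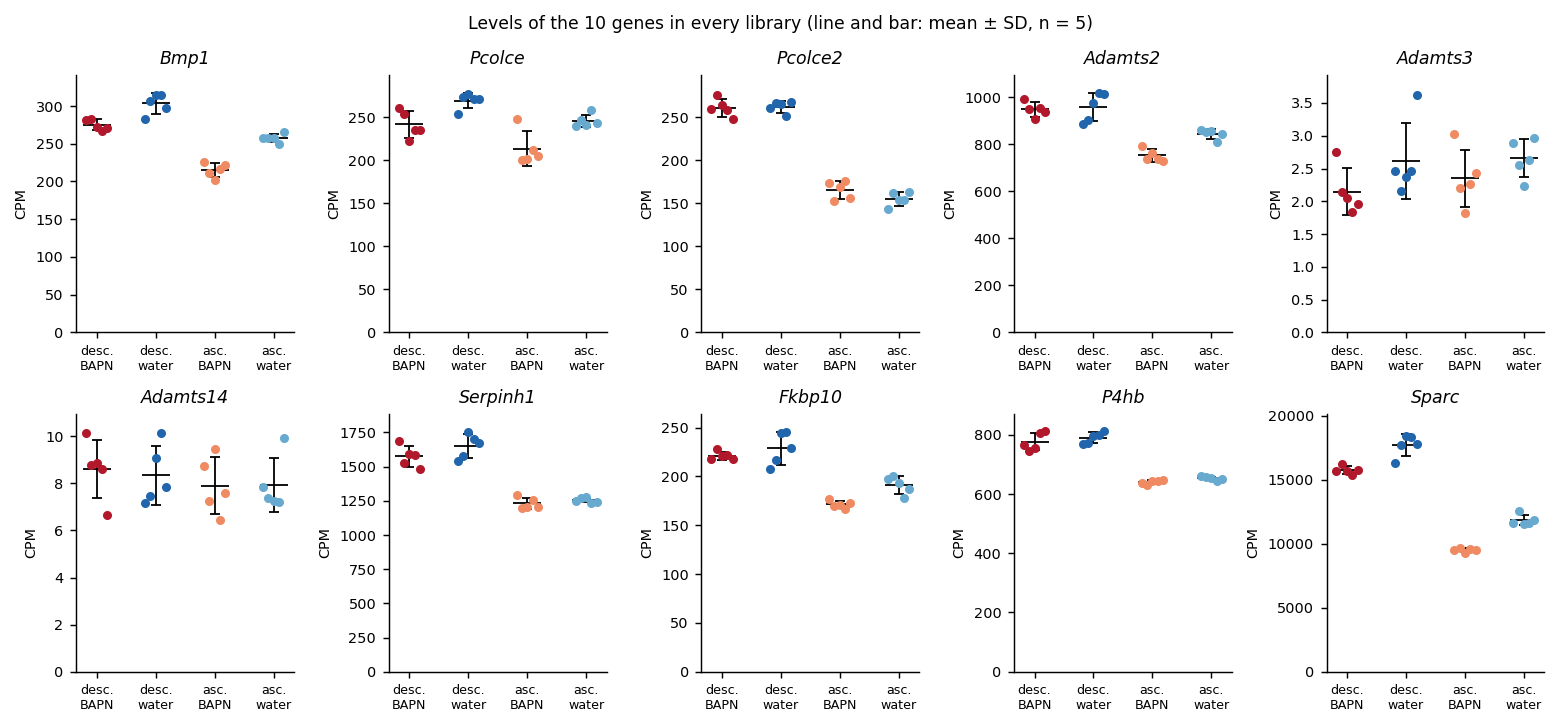
Each panel plots 1 gene's CPM per library, with the mean and SD of 5 libraries; the 4 groups run from descending BAPN on the left to ascending water on the right, and every axis starts at 0. In the ascending aorta the BAPN points of Sparc and Bmp1 lie below all water points, and those of Serpinh1 and P4hb overlap them.

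Not all of these falls were equally firm. With a term for the pseudogene set, 2 of the 10 genes fell, Sparc (log2 -0.29, edgeR adjusted p = 6.06e-05) and Bmp1 (-0.23, 0.00207), and the same 2 fell among the libraries of the higher set alone, where 5 BAPN libraries meet 2 water libraries (-0.31, edgeR adjusted p = 0.000211, and -0.26, 0.0148). Under the set term Pcolce was at -0.20 (edgeR adjusted p = 0.0662), Adamts2 at -0.12 (0.145) and Fkbp10 at -0.07 (0.383), and within the higher set they were at -0.23 (0.118), -0.14 (0.150) and -0.09 (0.346). Fkbp10 also lost its call without any 1 of 6 libraries (ascending BAPN 2, 3 or 4, or ascending water 1, 2 or 3; edgeR adjusted p 0.0594 to 0.0754), and Pcolce without ascending BAPN 2 or 3 or ascending water 4 (0.0543 to 0.0626). Smooth muscle markers summed to 22160 to 24600 CPM in ascending BAPN, against 19010 to 20960 CPM in ascending water, with 2 of 8 markers higher. Cardiomyocyte markers were at 734 to 1250 against 438 to 989.6 CPM (3 of 10 higher), and proliferation markers at 24.0 to 38.7 against 41.6 to 49.6 CPM (4 of 7 lower). Endothelial, macrophage, adipocyte and Schwann cell lists held 0 called markers after BAPN in either region. The part of these shifts in the falls was not tested.

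**Figure D3:**
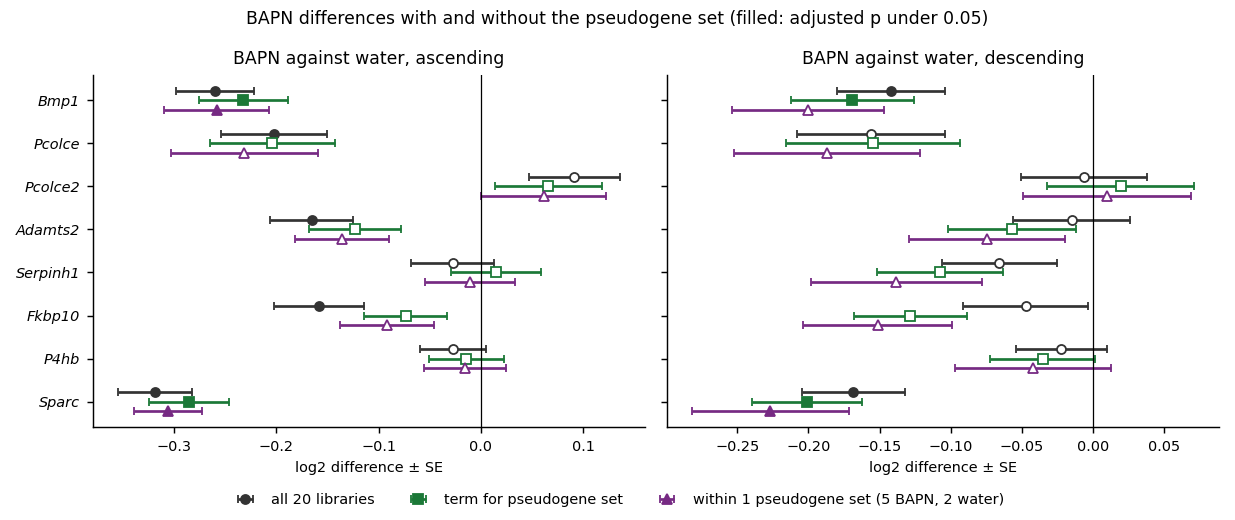
For 8 of the genes (the low Adamts3 and Adamts14 are left out), the log2 difference of BAPN against water with its SE is drawn from all 20 libraries, with a term for the pseudogene set, and within 1 set; filled marks have an adjusted p under 0.05. In the ascending panel only Sparc and Bmp1 keep filled marks in all 3 fits.

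In the descending aorta Sparc and Bmp1 fell, 2 of 10, where 4.54% of all genes tested fell and 6.18% rose (10.7% in all); 0 of the 10 rose. The median log2 difference was -0.057 over the 10 and -0.00027 over all genes tested. Sparc had 15682, 16196, 15651, 15381 and 15750.5 CPM in descending BAPN libraries, against 17690.0, 18365, 18305 and 17778 CPM in water replicates 2 to 5 and 16269 CPM in water replicate 1. The groups did not overlap, but water replicate 1 was close to the highest BAPN library. The level was 1.12-fold lower (log2 -0.17, SE 0.036, edgeR adjusted p = 0.00304). Bmp1 had 282, 283, 272, 267 and 271 CPM under BAPN and 283, 307, 315, 314 and 298 CPM with water, so only the lowest water library reached the BAPN range. Its difference was -0.14 (SE 0.038, edgeR adjusted p = 0.0158).

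Pcolce had 261, 254, 223, 235 and 235 CPM in descending BAPN, against 254, 274, 277, 271 and 271 CPM in descending water. The groups overlapped through the first replicate of each. The difference of -0.16 (SE 0.052, edgeR adjusted p = 0.0551) stayed on the other side of the threshold here, and passed it with several other scalings, filters and tools (adjusted p 0.028 to 0.0494) and without ascending BAPN 1, descending water 1, descending BAPN 1 or descending BAPN 2 (0.0168 to 0.0458). The remaining 7 genes did not pass. Adamts2 averaged 949 ± 31.0 CPM under BAPN and 959 ± 60.8 CPM with water, and Fkbp10 221 ± 4.21 and 229 ± 16.6 CPM (SD, n = 5 each); the log2 differences were -0.02 (95% interval -0.099 to 0.069) and -0.05 (-0.14 to 0.043). Serpinh1 differed by -0.07 (-0.15 to 0.017), P4hb by -0.02 (-0.088 to 0.043) and Pcolce2 by -0.0062 (-0.097 to 0.085). Adamts3 (-0.28, interval -0.64 to 0.083) and Adamts14 (0.04, -0.22 to 0.30) were again too low to resolve such changes. With a term for the pseudogene set some of these values were larger: Fkbp10 was at -0.13 (edgeR adjusted p = 0.0509), Serpinh1 at -0.11 (0.154) and Adamts2 at -0.057 (0.522). Within the lower set they were at -0.15, -0.14 and -0.075 (edgeR adjusted p = 0.162, 0.279 and 0.579).

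The descending calls also moved with single choices. With the set term the same 2 genes fell, Sparc (-0.20, edgeR adjusted p = 0.00178) and Bmp1 (-0.17, 0.0157). Bmp1 missed the threshold without descending water 3 (edgeR adjusted p = 0.0514), with no filter on low counts (0.0515) and within the set with lower pseudogene levels, where 5 BAPN and 2 water libraries remain (log2 -0.20, 0.0618). Sparc was called in each of these, with -0.23 and an edgeR adjusted p of 0.042 within that set. Smooth muscle markers were at 22550 to 25050 CPM in descending BAPN, against 18910 to 21520 CPM in descending water (2 of 8 higher), and proliferation markers at 24.6 to 39.9 against 58.8 to 70.8 CPM (7 of 7 lower). Fibroblast markers were at 2481 to 3022 against 2743 to 3011 CPM, with 2 of 8 lower, and chondrocyte markers at 53.7 to 65.4 against 50.03 to 62.3 CPM, with 1 of 8 tested higher. The part of these shifts in the descending falls was not tested.

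The falls in the ascending aorta were not shown to be deeper than those in the descending aorta. For the difference of the BAPN effect, descending minus ascending, edgeR called 0 of the 10 genes and 0% of all 15543, with 3 of the 10 and 1070 of all genes at an unadjusted p under 0.05. DESeq2 called 14 genes of all and limma-voom 0. The 3 were Sparc (log2 0.15, SE 0.051, edgeR adjusted p = 0.481), Adamts2 (0.15, SE 0.058, adjusted p = 0.589) and Bmp1 (0.12, SE 0.054, adjusted p = 0.687), where a positive sign means a smaller fall in the descending aorta. With a term for the pseudogene set they were at 0.084 (edgeR adjusted p = 0.923), 0.066 (0.958) and 0.063 (0.958).

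**Figure D4:**
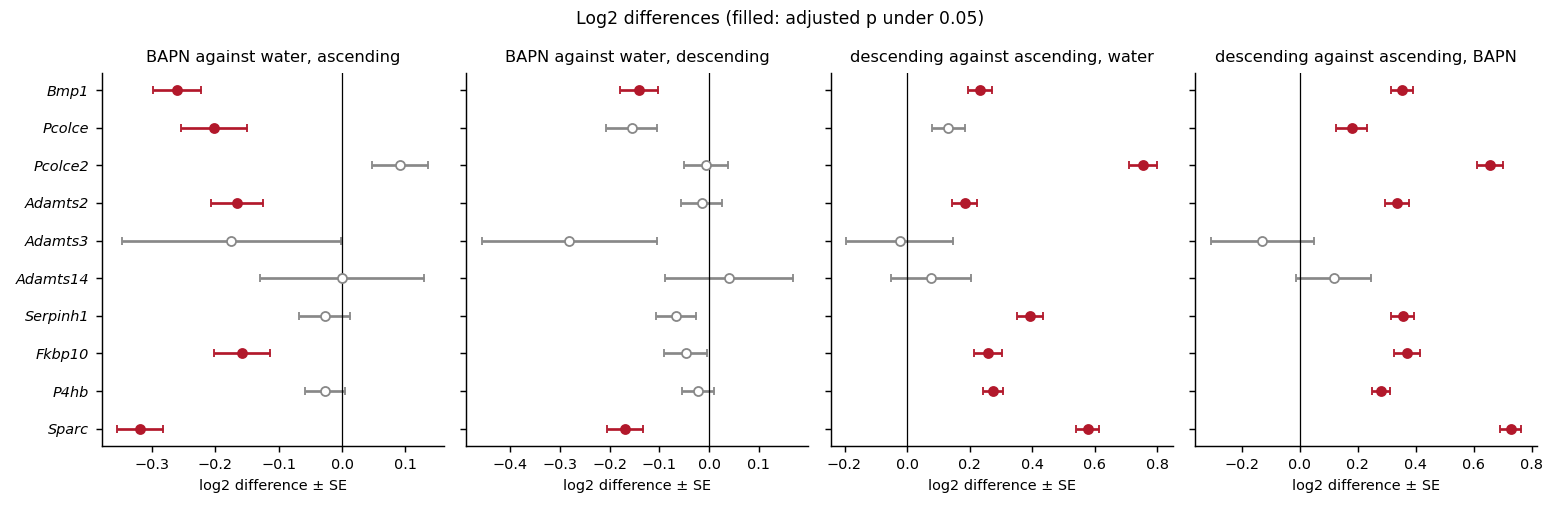
Log2 differences with their SE are shown for the 10 genes in 4 comparisons, filled where the adjusted p is under 0.05. The 2 BAPN panels hold 5 and 2 filled points, all left of 0, and the 2 regional panels hold 7 and 8, all right of 0.

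More of the 10 genes were called between the regions of the aorta than after BAPN, and so were more of all genes tested. After BAPN, 6.34% of all genes tested were called in the ascending and 10.7% in the descending aorta. With water, 7 of the 10 genes were higher in the descending than in the ascending aorta and 0 were lower, where 12.1% of all genes tested were higher and 15.2% lower (27.3% in all). The median log2 difference was 0.25 over the 10 and 0.0093 over all genes tested. With BAPN 8 of 10 were higher and 0 lower, against 14.2% and 15.6% of all genes (29.8% in all). The 2 comparisons use different libraries of the same regions.

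Pcolce2 had the largest log2 difference with water. It stood at 261, 266, 265, 251 and 267 CPM in descending water, against 144, 162, 153, 153 and 164 CPM in ascending water, with a wide gap between the groups. The log2 difference was 0.75 (SE 0.045, edgeR adjusted p = 5.85e-13), a 1.69-fold higher level. The other enhancer, Pcolce, averaged 269 ± 9.08 CPM in descending water and 246 ± 7.30 CPM in ascending water (SD, n = 5 each), a difference of 0.13 (SE 0.052, edgeR adjusted p = 0.061) that passed only in some fits, such as without descending water 1 (0.0381), without ascending BAPN 1 (0.0189), in the fit to these 2 groups alone (0.0211) or within the lower pseudogene set (0.046). Sparc was 1.49-fold higher (log2 0.58, SE 0.036, edgeR adjusted p = 1.69e-12), and all 5 descending water libraries (16269 to 18365 CPM) lay above all ascending ones (11567 to 12571 CPM).

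The chaperones followed. Serpinh1 had 1539, 1576, 1752, 1700.3 and 1674 CPM in descending water, every library above the ascending range of 1236 to 1278 CPM, a log2 difference of 0.39 (SE 0.040, edgeR adjusted p = 1.91e-08). P4hb was higher by 0.27 (SE 0.032) and Fkbp10 by 0.26 (SE 0.044). Of the 7, the proteinases had the smallest values: Bmp1 0.23 (SE 0.038) and Adamts2 0.18 (SE 0.041), while Adamts3 (-0.02, interval -0.38 to 0.33) and Adamts14 (0.08, -0.19 to 0.34) did not pass. The 95% intervals of Bmp1 (0.16 to 0.31) and Adamts2 (0.1 to 0.27) overlapped those of Fkbp10 (0.17 to 0.35) and P4hb (0.21 to 0.34). From mean CPM without TMM scaling, the differences of all 7 and of Pcolce were smaller. Pcolce2 was at 0.69, Sparc at 0.51, Serpinh1 at 0.33 and P4hb at 0.21. Fkbp10 was at 0.19, Bmp1 at 0.17, Adamts2 at 0.12 and Pcolce at 0.067. In the higher pseudogene set alone, where 3 descending meet 2 ascending water libraries, Bmp1 (0.19, edgeR adjusted p = 0.0702) and Adamts2 (0.17, 0.131) missed the threshold; Pcolce2 (0.73) and Sparc (0.55) passed it.

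With BAPN, Sparc was 0.73 higher in the descending than in the ascending aorta on the log2 scale (SE 0.036) and Pcolce2 0.66 (SE 0.045). Fkbp10 (0.37), Serpinh1 (0.35), Bmp1 (0.35), Adamts2 (0.33) and P4hb (0.28) were higher with no overlap between libraries. Pcolce was higher by 0.18 (SE 0.052, edgeR adjusted p = 0.0102) with overlap, and by 0.18 with an adjusted p of 0.108 once the pseudogene set was a term. The set term brought Fkbp10 to 0.23 (edgeR adjusted p = 0.00117) and Serpinh1 to 0.28 (0.000355). All ascending BAPN libraries are in the higher set and all descending ones in the lower set, so within a set this comparison cannot be made, and set and region cannot be told apart here from these 2 groups alone. Fibroblast markers summed to 2743 to 3011 CPM in descending water against 4044 to 4474 CPM in ascending water, and 2481 to 3022 against 4012 to 4440 CPM with BAPN, with 5 of 8 markers lower and 1 higher in each. Cardiomyocyte (10 of 10), mesothelial (5 of 5) and Schwann cell markers (4 of 6) were lower in the descending libraries with both treatments, with Myl2 at 0 in descending water, and chondrocyte markers in 8 of 8 tested with water and 7 of 8 with BAPN. Proliferation markers were higher in 5 of 7 with water (58.8 to 70.8 against 41.6 to 49.6 CPM) and 0 of 7 with BAPN, and adipocyte markers in 3 of 7 with water and 1 of 7 with BAPN. Their part in the regional differences was not tested.

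How much of each transcript there was beside the substrate was measured as counts per 1000 counts of Col1a1, Col1a2 and Col3a1 in the same library, which does not depend on library scaling. The 3 chains summed to 18740 ± 827 CPM in ascending BAPN and 22030 ± 543 CPM in ascending water, and to 28670 ± 1836 CPM in descending BAPN and 30840 ± 1559 CPM in descending water (SD, n = 5 each). The denominator itself therefore differed, by -0.23 and -0.11 on the log2 scale after BAPN, and a gene of steady level gains that much. Ratios were compared by a two-sided exact permutation test, with Benjamini-Hochberg adjustment over 40 tests; 5 libraries against 5 cannot give a p below 0.00794, which became 0.0167 after adjustment.

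In the ascending aorta the chaperones Serpinh1 and P4hb and the enhancer Pcolce2 were more abundant per procollagen count after BAPN. Fkbp10 did not pass (log2 0.077, exact permutation adjusted p = 0.0977, with overlap). Serpinh1 had 64.3, 66.8, 65.2, 67.2 and 65.0 per 1000 under BAPN, against 56.7, 56.3, 58.5, 58.1 and 55.0 with water. P4hb had 31.7, 35.2, 34.8, 34.4 and 34.9 per 1000 under BAPN and 29.9, 29.1, 29.9, 30.3 and 28.8 with water. Pcolce2 had 8.63, 8.53, 9.14, 9.38 and 8.39 per 1000 under BAPN and 6.51, 7.21, 7.03, 7.20 and 7.24 with water. In these 3 genes every BAPN library lay above every water library (log2 0.21, 0.21 and 0.32; exact permutation p = 0.00794, adjusted p = 0.0167 each), but so did 30.2% of all genes tested (0.277% were lower without overlap), and the median gene gained 0.23, so the gains of Serpinh1 and P4hb were close to that of the median gene. Within the higher pseudogene set, Serpinh1 was at 64.3 to 67.2 per 1000 in 5 BAPN libraries and 55.0 to 58.1 in 2 water libraries.

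The ratios of the proteinase, the other enhancer and Sparc to procollagen did not pass in the ascending aorta, and whether they were constant was not tested. That of Sparc was lower at an unadjusted exact permutation p of 0.0397. Bmp1 had 11.5 ± 0.430 per 1000 in ascending BAPN and 11.7 ± 0.135 in ascending water, Pcolce 11.4 ± 0.563 and 11.2 ± 0.559, and Sparc 507 ± 25.1 and 537 ± 14.3 (SD, n = 5 each); their log2 differences were -0.03, 0.03 and -0.08, none past the adjusted threshold (exact permutation test, adjusted p = 0.417, 0.480 and 0.0661). Adamts2 had 40.1 ± 1.07 against 38.3 ± 0.825 per 1000 (log2 0.07, exact permutation adjusted p = 0.0289, with overlap), a call that was lost in 8 of the 20 fits without 1 library. In the descending aorta Adamts2 was the 1 gene past the threshold, at 31.8, 32.0, 34.1, 34.8 and 33.0 per 1000 with BAPN and 30.7, 30.3, 31.4, 31.2 and 31.6 with water (log2 0.09, exact permutation adjusted p = 0.0167), where 8.48% of all genes were higher and 1.09% lower without overlap and the median gene gained 0.10.

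**Figure D5:**
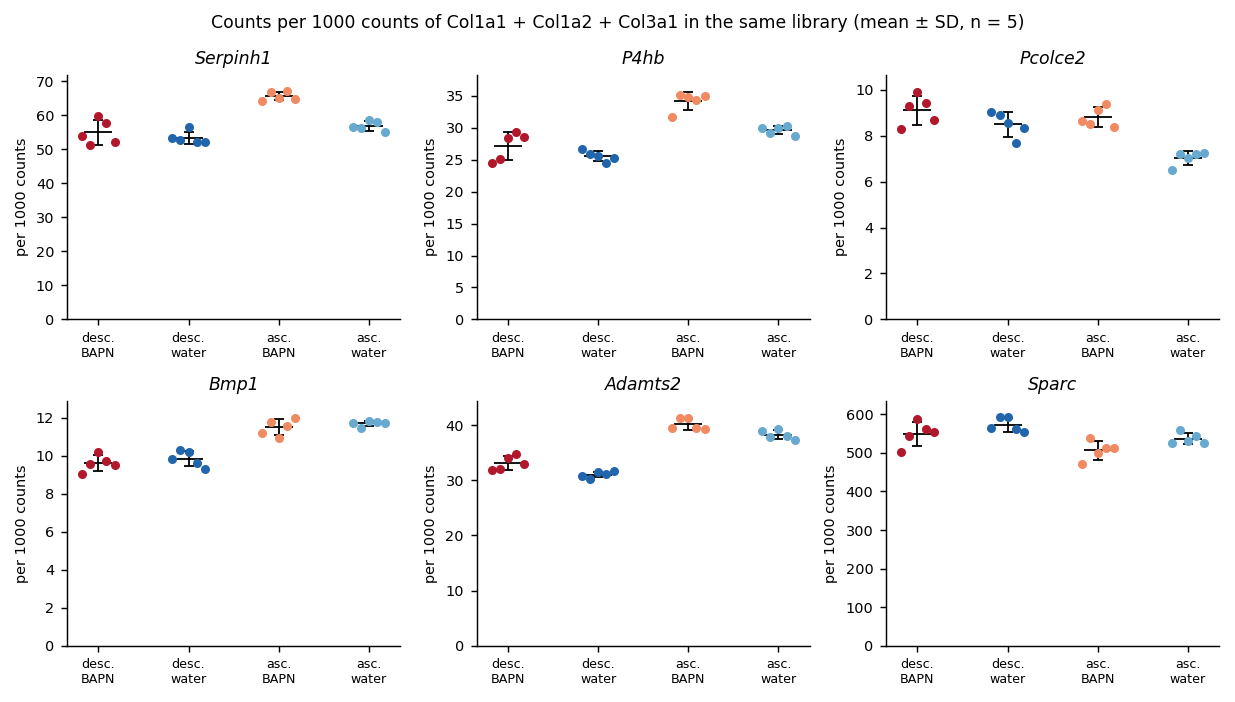
For 6 genes, counts per 1000 counts of Col1a1, Col1a2 and Col3a1 are plotted per library with the mean and SD of 5 libraries, from descending BAPN on the left to ascending water on the right. The ascending BAPN points of Serpinh1, P4hb and Pcolce2 lie above all ascending water points, while those of Bmp1 overlap them.

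Between the regions, ratios mostly ran opposite to levels. Per procollagen count, 8 of the 10 genes were lower in descending than in ascending water and 2 were higher. Without overlap 6 of the 10 were lower and 1 was higher, against 65.8% and 1.24% of all genes tested, so the lower count was near that of all genes; the 3 chains themselves were 0.48 higher on the log2 scale. The 2 that were higher were Pcolce2 (8.51 ± 0.539 in descending water against 7.04 ± 0.304 per 1000 in ascending water, no overlap, exact permutation adjusted p = 0.0167) and Sparc (573 ± 18.5 against 537 ± 14.3, overlapping, 0.0289; SD, n = 5 each). Sparc missed the threshold in 8 of the 20 fits without 1 library. Only the 10 fits without a library of the 2 water groups can change the ratios compared here. The smallest of the 8 negative differences was that of Serpinh1 (-0.09, exact permutation adjusted p = 0.0414, lost in 9 of the 20 fits without 1 library), followed by P4hb (-0.21) and Fkbp10 (-0.23); Bmp1 was at -0.25, Adamts2 at -0.30 and Pcolce at -0.35. The median gene was at -0.47. With BAPN, Pcolce2 had 9.12 ± 0.635 in the descending and 8.81 ± 0.425 per 1000 in the ascending aorta and did not pass (log2 0.05, exact permutation adjusted p = 0.426); 8 genes were again lower, all without overlap, and 0 were higher without overlap, where 73.2% of all genes were lower and 0.843% higher in that way.

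Several substrates of these enzymes were lower as well. Of all genes tested, 2.91% fell and 3.44% rose in the ascending aorta after BAPN, against 4.54% and 6.18% in the descending aorta. After BAPN, 6 of 10 tested fibrillar procollagen chains were lower in the ascending aorta and 0 higher, with a median of -0.24 on the log2 scale, and 2 were lower in the descending aorta (median -0.071). Col27a1 fell in both (-0.45, edgeR adjusted p = 0.000177, and -0.31, 0.00602), as did Col3a1 (-0.27, 0.000236, and -0.16, 0.0151). Col1a2 (-0.18, edgeR adjusted p = 0.00634) and Col11a2, also a cartilage chain (-0.71, 0.00122), fell in the ascending aorta. Chondrocyte markers, Col11a2 among them, summed to 111 to 157 CPM in ascending BAPN, against 136 to 164 CPM in ascending water. Matn1 was at 0 under BAPN. The 1 marker called lower of 8 tested was Col11a2 itself, so that count adds nothing to its own fall. The part of cartilage cells in the fall of Col11a2 was not tested.

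Genes that modify the chains in the endoplasmic reticulum changed in both directions. The shares of all genes tested were 2.91% lower and 3.44% higher in the ascending aorta, and 4.54% and 6.18% in the descending aorta. Of 13 collagen hydroxylases and glycosyltransferases 4 fell in the ascending aorta: the prolyl 3-hydroxylase family members P3h3 (-0.25, edgeR adjusted p = 0.000587) and P3h1 (-0.15, 0.0286), the P3h1 partner Crtap (-0.17, 0.0131) and the lysyl hydroxylase Plod2 (-0.14, 0.0446). In the descending aorta P3h3 (-0.18, edgeR adjusted p = 0.00733) and Plod2 (-0.16, 0.0167) fell and P3h2 rose (0.61, 4.61e-05). Among 13 further folding helpers, Hspa5, the general chaperone of the endoplasmic reticulum, rose in both regions (0.33, edgeR adjusted p = 8.39e-06, in the ascending and 0.33, 4.67e-06, in the descending aorta), as did the ion channel gene Tmem38b (0.29, 0.000845, and 0.28, 0.000697). In the ascending aorta the disulfide isomerase Pdia6 rose (0.18, edgeR adjusted p = 0.0303) and the prolyl isomerase Fkbp9 fell (-0.13, 0.0233), and in the descending aorta Fkbp7 fell (-0.23, 0.026). Of 9 genes for procollagen export 0 changed in the ascending aorta, while the vesicle coat genes Sec24d (0.12, edgeR adjusted p = 0.0387) and Sec23a (0.15, 0.0403) rose in the descending aorta.

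Partners of the C-proteinase moved in both directions. Beside them, 2.91% of all genes tested fell and 3.44% rose in the ascending aorta, and 4.54% and 6.18% in the descending aorta. Furin, a convertase that removes the prodomains of these proteinases, rose in the descending aorta (0.21, SE 0.052, edgeR adjusted p = 0.00919) and was at 0.14 (adjusted p = 0.119) in the ascending aorta. Of 11 other tested substrates of the C-proteinase, Lox rose in both regions (0.25, edgeR adjusted p = 0.00329, and 0.25, 0.00178), and Bgn (-0.20, 0.0199) and Loxl1 (-0.15, 0.045) fell in the ascending aorta. Fn1, which encodes fibronectin, rose in the descending aorta (0.20, edgeR adjusted p = 0.00798), as did Thbs1 (0.41, 0.035); in the ascending aorta 0 of these 3 matrix partners changed. In the family of Sparc, Sparcl1 went the other way from Sparc in both regions (0.23, edgeR adjusted p = 0.00211, and 0.24, 0.00129), and Spock2 rose in the descending aorta (0.32, 0.0128).

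The regional pattern was shared by much of the folding machinery. Of all genes tested, 12.1% were higher in the descending aorta with water and 15.2% lower. With water, 9 of the 13 hydroxylases and glycosyltransferases and 8 of the 13 folding helpers were higher in the descending aorta, with P4ha2 (0.52), Colgalt1 (0.34), Fkbp9 (0.38) and Fkbp11 (0.68) among them; Colgalt2 (-4.44, SE 0.28) was lower. The tolloid-like proteinase gene Tll1 was lower in the descending aorta (-3.60, SE 0.34), at a group mean of 0.287 CPM in descending water and 3.50 CPM in ascending water. Of the export genes 5 of 9 were higher, led by Sec24d (0.24) and Sec13 (0.24). The fibrillar chains split, with Col1a1 (0.68) and Col1a2 (0.55) higher and the cartilage chains Col11a2 (-2.94) and Col11a1 (-2.27) lower. Sparcl1 was lower (-1.66), opposite to Sparc, and Smoc1 (0.81) and Fstl1 (0.34) were higher.

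The genes whose levels ran most like the 10 across all 20 libraries were picked by the smallest root mean square difference of log2 CPM, each gene centred on its own mean, which mostly follows the regions. For Sparc these were Htra1 (0.065), Gdf10 (0.076) and Col1a2 (0.081), and Sparc itself varied with an SD of 0.36. For Serpinh1 (SD 0.20) they were Loxl3 (0.048), Col6a1 (0.052) and Txndc5 (0.063), for Pcolce2 (SD 0.37) Npr1 (0.083), Tppp3 (0.089) and Tm6sf1 (0.10), and for Bmp1 (SD 0.19) Gpx7 (0.058), Tmed3 (0.063) and Copz2 (0.068). Adamts2 and Fkbp10 named each other (0.052), and both had Chpf nearest (0.049 and 0.043). P4hb (SD 0.15) ran closest to Ssr1 (0.046), Eml1 (0.046) and Oxct1 (0.047), and Pcolce (SD 0.15) to Man2b2 (0.066), Gusb (0.069) and Rcn1 (0.079). For the low Adamts14 (SD 0.20) the nearest gene, Zfp821, was 0.14 away. These are descriptions over libraries that share region and treatment.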

How the data were processed

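The authors deposited raw counts of reads per gene for 20 libraries, in 1 table and 20 per-library files that were checked and hold equal values. Per the submitters' processing notes, fastp, STAR 2.5, HTSeq 0.6.1 and mm10 were used; settings, strand use and annotation are not given in the sources used here. Per the labels' protocols, libraries were made from 1 µg of total RNA with a NEBNext kit, and groups follow the labels. Names and positions are those of GENCODE M21 (54495 of 54532 gene IDs matched). From the counts, edgeR 4.0.16 (R 4.3.3) with filterByExpr (minimum count 10, total 15) and TMM scaling tested 15543 genes in 1 quasi-likelihood model of the 4 groups (16 residual degrees of freedom); Benjamini-Hochberg adjustment ran per comparison, with calls at an adjusted p under 0.05. CPM use TMM-scaled library sizes, and TPM were computed from the counts and the union of exons. Totals of 15744725 to 23292294 counts per library limit precision most for Adamts3 and Adamts14. Named list genes are up to 4 per list with the smallest p in each BAPN comparison and the regional comparison with water; closest genes needed a mean of at least 5 CPM. The edgeR pipeline was also run on simulated counts with known changes in the ascending BAPN group only. The outcome of that run is not given here. The alternatives were RLE and upper-quartile scaling, CPM without TMM scaling, TPM, no filter and a stricter filter (1 CPM in 5 libraries), DESeq2 1.42.0, limma-voom 3.58.1, the 2 groups alone, a replicate block, pseudogene set and leaving out each library. Members, lists, markers and the pseudogene split were chosen with earlier results of these data known. Ratio values within a pseudogene set were added after seeing the data. Figures were drawn with matplotlib 3.10.9.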

Additional observations from a re-analysis of the deposited data

Results flagged for a closer look

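Over the 10 genes and 4 groups, 40 sets of 5 libraries were screened for a single library far from the rest (gap over range above 0.71), and 4 were marked; about 1 in 20 such sets is marked by chance. Pcolce stood at 248.4 CPM in ascending BAPN replicate 1, above the other 4 libraries at 199.8 to 212 CPM, and this library is the one that makes the ascending groups of Pcolce overlap. Pcolce also stood at 253.5 CPM in descending water replicate 1, below the other 4 at 271 to 277 CPM. Adamts3 had 3.62 CPM in descending water replicate 5, against 2.16 to 2.47 CPM in the others. Adamts14 had 9.94 CPM in ascending water replicate 5, against 7.20 to 7.82 CPM in the others; both rest on at most 201 counts per library.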

How the results depend on the processing

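No called result turned its direction. The 5 falls after BAPN in the ascending aorta became 2 with a term for the pseudogene set and 2 within the higher set, and 3 to 5 when 1 library was left out. The 2 falls in the descending aorta became 1 with no filter and 1 within the lower set, and 1 to 3 when 1 library was left out. Of the ratios to procollagen, those higher in descending than in ascending water numbered 1 to 2 when 1 library was left out, those lower 6 to 8, those higher with BAPN 0 to 1, and those lower in ascending BAPN than in ascending water 0 to 1. The check made did not settle whether replicate numbers pair the libraries. Deviations of same-numbered libraries correlated by -0.0597 to 0.167, and in no pair of groups were all above 0.1. Every library correlated best with its own number in 1 pair of groups, the BAPN libraries of both regions (5 of 5, correlations 0.064 to 0.106). This is a hint from the data that they are paired, against 0 to 3 of 5 elsewhere. The main fit treats all libraries as unpaired. A replicate block gave 5 falls in the ascending and 3 in the descending aorta, the third being Pcolce (edgeR adjusted p = 0.0489), and 7 and 8 higher genes between regions. Over all genes, the set term left 330 higher and 212 lower calls (ascending; 534 and 452 without it), and the higher set alone 270 and 213; in the descending aorta (961 and 706) the set term gave 629 higher, the 2 groups alone 623 higher and the lower set alone 218 and 212. Between regions the set term gave 1131 higher with BAPN (2206 without it), and single sets 898 and 1019 higher with water (1885). For the difference of effects (0 calls), DESeq2 gave 1 higher and 13 lower, no filter 11 and 30, and leaving out descending water 4 gave 16 lower. Upper-quartile scaling gave 449 higher and 529 lower calls in the ascending aorta, and no filter 434 and 517. The causes were not tested. With RLE or upper-quartile scaling the median of all genes was at most 0.0263 in size on the log2 scale. Differences of mean levels from CPM without TMM scaling or from TPM moved by more than the libraries' spread in 6 of 20 values between regions with water and 12 of 20 with BAPN (Pcolce with water 0.067 without TMM scaling), and in 0 of 40 after BAPN. The moved values were all smaller than those from TMM-scaled CPM. Counts of Adamts3 (32 to 60 per library) limit what can be resolved for it.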
